A study of Homo sapiens with 2 samples.

Results

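TERT and TERC, the 2 genes whose products form the catalytic core of telomerase, were described in H9 cells, an established line of human embryonic stem cells. They were taken by name from the RefSeq gene table, and the starts of 13791 protein-coding genes, TERT among them, served for comparison. Chromatin accessibility and DNA methylation were read from the same libraries by ATAC-Me. In this assay a transposase cuts open chromatin and inserts adapters there, and conversion of the fragments then tells methylated from unmethylated cytosines. There was 1 group, untreated pluripotent H9 cells grown on Matrigel in mTeSR medium, with 2 replicates and no second condition. Whether separate cultures were used is not in the labels, so p-values and SDs measure only how these replicates differ, which may be technical. All methylation values are percentages of CpG reads that were methylated in a region. One read can count at more than 1 CpG, and the 95% Wilson intervals and limits for a count of 0 cover counting error only.

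Telomerase lengthens chromosome ends by copying a short template carried in its own RNA. TERT is the reverse transcriptase, and TERC is the RNA that holds the template. Most adult tissues keep TERC but silence TERT, whereas pluripotent stem cells keep telomerase active. The TERT start lies in a CpG-dense stretch. In many cancer cells that express TERT, DNA upstream of its core promoter is methylated while the core promoter is not.

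TERT occupies chromosome 5 from 1253167 to 1295068 on the reverse strand (build hg38) and starts at its higher coordinate. TERC occupies chromosome 3 from 169764610 to 169765060 and is only 451 bp long. Its strand was not in the tables used and was taken as reverse from textbook knowledge, so its start was set at 169765060. Within 10 kb of either gene the tables listed 2239 CpGs at TERT, of which 825 and 1712 were covered in replicates 1 and 2. At TERC they listed 412 CpGs, of which 321 and 360 were covered. The authors' peak list held 46980 accessible regions, and 6 of them lay within these limits, 1 at TERT and 5 at TERC.

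The 250 bases before the TERT start are shown because they had the most reads per CpG of the 250 bp steps around the start and hold the gene-side part of the accessible peak, whose summit lies further upstream. They are the RefSeq sequence of GRCh38.p14 at chr5:1295069-1295318, reverse strand, written 5′ to 3′, with every CpG in capitals.

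TERT upstream: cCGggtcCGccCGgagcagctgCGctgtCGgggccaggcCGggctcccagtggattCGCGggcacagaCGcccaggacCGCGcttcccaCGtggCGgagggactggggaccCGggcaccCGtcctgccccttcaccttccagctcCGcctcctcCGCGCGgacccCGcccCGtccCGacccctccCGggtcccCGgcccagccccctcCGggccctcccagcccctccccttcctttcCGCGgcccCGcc

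This stretch held 28 CpGs, and all 28 were listed in the methylation tables. Its content of G and C was 78.8%, against a median of 62.4% in the same window of 13791 protein-coding genes. The E-box CACGTG, a sequence bound by MYC and MAX that reads the same on both strands, occurred once, 163 to 158 bases before the start, and occurs in 7.87% of those windows. Its CpG had 0 methylated reads of 9 in replicate 1 and 0 of 22 in replicate 2. The GC box GGGCGG, a sequence bound by SP1, was searched on both strands and matched on the opposite strand at 244 to 239 and at 86 to 81 bases before the start. Of the windows, 56.0% hold at least 1 match and 33.6% at least 2. The CpG of the GC box nearer the start had 1 methylated read of 16 in replicate 1 and 5 of 46 in replicate 2. A match shows only that these letters are present.

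Depth and cell identity bear on what follows. The libraries held 28475863 and 51406146 autosomal CpG reads, of which 49.4% and 36.1% fell in peaks. Outside peaks the mean was 0.535 and 1.22 reads per listed CpG, and 61.1% and 70.0% of CpG reads were methylated. Of 10 pluripotency genes chosen as markers, 4 had a listed start, SOX2, NANOG, CRIPTO and ZFP42. All 4 had a peak within 1000 bp and methylation from 0.685% to 1.47%. The blood gene LCK read 86.4% and the epithelial gene KRT5 88.3%, neither with a peak. The neural genes PAX6 and SOX1 had peaks and read 0.843% and 1.06%.

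A listed peak lay just before the TERT start, and the start was almost free of methylation in both replicates. Within 500 bp on each side of the start, 7 of 745 CpG reads were methylated in replicate 1 and 25 of 1332 in replicate 2. These are 0.940% (interval 0.456% to 1.93%) and 1.88% (1.27% to 2.76%), a mean of 1.41% ± 0.663 (SD, n = 2). With 1000 bp on each side, which takes in the methylated edges, the mean was 10.5%. All 120 CpGs of the region were covered in both replicates. Of the 30 CpGs with at least 10 reads in each replicate, 21 had no methylated read in either. The most methylated of these 30 lay 84 bp upstream, inside the GC box nearer the start, at 6.25% and 10.9%. Next were CpGs 74 bp upstream, at 13.3% and 0%, and 41 bp upstream, at 0% and 9.09%.

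Among protein-coding starts, the level at TERT was ordinary and its CpG content high. TERT stood at percentile 57.7 for methylation among the measured starts, and the median of the 10460 protein-coding ones was 1.18%. With 120 CpGs within 500 bp, against a median of 74, it stood at percentile 92.4 for CpG number. Fisher's exact test between replicates gave TERT an adjusted p of 0.245 (two-sided, Benjamini-Hochberg over 10461 starts, TERC included). The same test called 30.9% of all starts, nearly all of them higher in replicate 2.

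The peak of TERT lay entirely before the start. It ran from 478 to 11 bp upstream (chromosome 5, 1295079 to 1295546), with its summit 325 bp upstream. Its 51 CpGs read 0.777% (4 of 515 reads) in replicate 1 and 2.03% (20 of 984) in replicate 2, a mean of 1.40% ± 0.888 (SD, n = 2). The replicates did not pass Fisher's exact test (two-sided, adjusted p = 0.334 over 40703 peaks), which called 7.89% of peaks. The authors' peak signal, used only to rank peaks within their list, was 619 and stood at percentile 56.1 of the 46884 autosomal peaks. Among the 8500 autosomal starts with a peak summit within 1000 bp it stood at percentile 19.7, where the median of the strongest peak was 1316. The TERT peak was therefore of middling rank among all peaks and weak among peaks at gene starts. No other peak was listed within 10 kb of TERT, and the nearest one beyond began 21189 bp upstream of the start.

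The unmethylated stretch of TERT gave way to methylated DNA within 1000 bp of the start on both sides. In 250 bp steps, 7 of 24 steps within 3 kb reached 10 CpG reads in both replicates. Of these, 4 in a row were under 20% in both replicates, from 500 bp upstream to 499 bp past the start. From 500 to 251 bp upstream the replicates read 0.913% and 0.347%, the lowest mean of the 7 steps (0.630% ± 0.400, SD, n = 2). From 250 to 1 bp upstream they read 1.27% and 2.76%. The first 250 bp of the gene read 0.781% and 1.22%. The step from 250 to 499 bp past the start had 0 methylated reads of 84 in replicate 1, which allows a level of up to 3.57%, and read 1.33% in replicate 2.

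On the upstream side the step from 750 to 501 bp read 23.3% and 14.8%, so that the 20% limit was crossed there in replicate 1 only. In steps of 100 bp, chosen after the data were examined, values climbed away from the gene. They were 5.41% and 1.43% at 500 to 401 bp upstream, 10.8% and 6.45% at 600 to 501 bp and 29.4% in both replicates at 700 to 601 bp. At 800 to 701 bp they were 83.3% and 60% (6 and 15 reads). At 1000 to 751 bp upstream replicate 2 read 80.4% (46 reads), while replicate 1 had 6 reads there, all methylated. From 10000 to 1001 bp upstream the values were 86.9% (107 reads) and 92.0% (200 reads).

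Values climbed on the gene side as well. The 100 bp from 400 to 499 bp past the start had no methylated read among 21 and 20 reads. The next 100 bp read 36.4% and 20.6% (11 and 34 reads), then followed 63.6% and 57.5%, and 700 to 799 bp past the start read 90.2% and 79.2% (41 and 24 reads). Summed over 500 bp, the stretch from 500 to 999 bp past the start read 79.7% and 63.8%, against 0.472% and 1.25% in the first 500 bp. The difference of 70.9 ± 11.9 points (SD, n = 2) exceeded the spread between replicates. CpG density did not drop in the same way, with 52 CpGs in the methylated 500 bp and 64 in the unmethylated 500 bp. Reads per CpG were 1.52 and 3.08 in the methylated stretch and 3.31 and 5.0 in the unmethylated one. The highest of the 7 measured steps was that from 750 to 999 bp past the start, at 87.5% and 81.6%. Whether lower coverage bears on the difference was not tested.

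**Figure D1:**
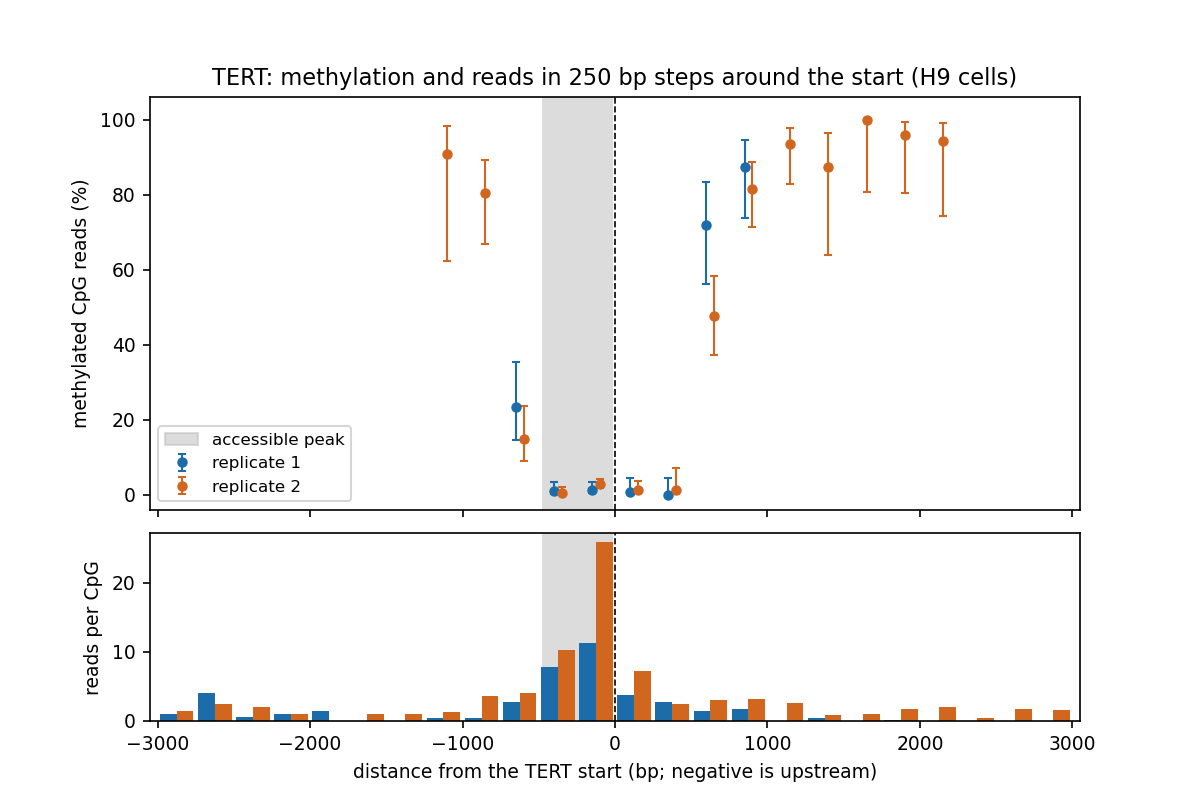
Percent of CpG reads methylated (upper panel, points with 95% Wilson intervals) and reads per CpG (lower panel) in 250 bp steps from 3 kb before to 3 kb past the TERT start, for replicates 1 and 2. Points need at least 10 reads in that replicate, and the grey band is the accessible peak. The 4 steps from 500 bp upstream to 499 bp past the start lie below 3%, and the step from 750 to 999 bp past the start reads 87.5% and 81.6%.

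The rest of TERT was mostly methylated where it was read. From 1000 bp past the start to the gene end, 416 and 1068 of 1517 CpGs were covered in replicates 1 and 2. Of the CpG reads there, 468 of 522 were methylated in replicate 1 and 2068 of 2250 in replicate 2. These are 89.7% and 91.9%, a mean of 90.8% ± 1.60, against 1.41% ± 0.663 within 500 bp of the start (SD, n = 2). The difference of 89.4 ± 0.932 points (SD, n = 2) exceeded the spread between replicates. An exact sign-flip permutation of 2 paired differences cannot go below p = 0.5, so no p is given. The body differed from the DNA 10000 to 1001 bp upstream by 1.33 ± 2.0 points (SD, n = 2), less than the spread between replicates.

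In steps of 2500 bp the body showed no unmethylated stretch. All 17 steps were over 80% in replicate 2, where they ranged from 82.0% to 100%. In replicate 1, 14 of the 17 were over 80%, and the lowest, from 26000 to 28499 bp past the start, read 66.7% on 9 reads. Coverage was thin, at 0.344 and 1.48 reads per CpG in the body against 10.1 and 19.3 in the TERT peak, so a short unmethylated site could have been missed. The annotated genes LOC107987433 (1285397 to 1289245) and LOC124905596 (1289486 to 1302528) overlap TERT, and the second spans the TERT start. Their own starts were not in the start table and were not analysed here.

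**Figure D2:**
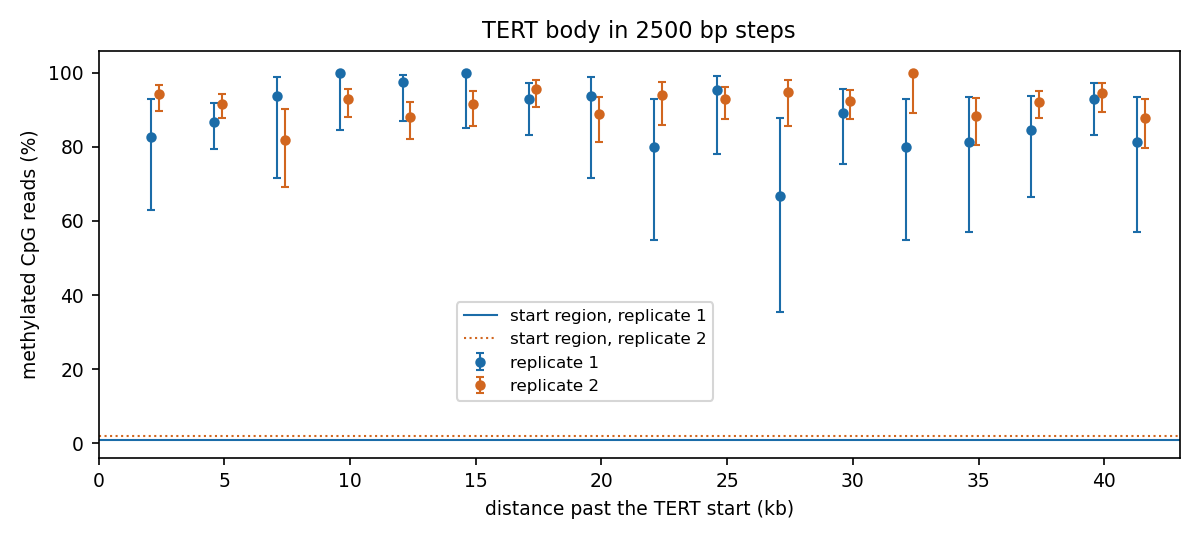
Percent of CpG reads methylated in 2500 bp steps from 1 kb past the TERT start to the gene end, with 95% Wilson intervals, for replicates 1 and 2. The horizontal lines give the level within 500 bp of the start, 0.940% in replicate 1 and 1.88% in replicate 2, and every step of replicate 2 lies at or above 82.0%.

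A listed peak covered the TERC start, but the short gene as a whole read higher than the DNA just before it. Within 500 bp of the start, 40 of 374 CpG reads were methylated in replicate 1 and 89 of 436 in replicate 2. These are 10.7% (interval 7.95% to 14.2%) and 20.4% (16.9% to 24.4%), a mean of 15.6% ± 6.87 (SD, n = 2). This mean depended on the region and weighting: it was 8.28% within 250 bp, 8.92% over CpGs with at least 5 reads (2.97% and 14.9%) and 23.8% with CpGs weighted equally. Fisher's exact test between replicates called this start (two-sided, adjusted p = 0.00184), replicate 2 being 9.72 points higher. Since 29.7% of all starts were called with replicate 2 higher, the call is not particular to TERC. TERC stood at percentile 91.4 for methylation among the measured starts and at percentile 24.3 for reads.

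Values just before the TERC start were low, and those within the gene and further upstream were higher. The 500 bp before the start read 3.76% and 7.69%, and nearly all of those reads lay in the last 250 bp, since the step from 500 to 251 bp upstream had only 4 and 2 reads. From 1000 to 501 bp upstream the replicates read 62.5% (16 reads) and 83.3% (12 reads), and from 3000 to 1001 bp upstream 60% (15 reads) and 87.5% (24 reads). The first 500 bp from the start, which hold the whole gene, read 19.9% (32 of 161 reads) and 29.5% (75 of 254). The difference of 19.0 ± 4.04 points (SD, n = 2) exceeded the spread between replicates, but it may rest on few fragments. Over the gene interval alone, with 45 CpGs, the replicates read 17.3% and 25.7% (mean 21.5% ± 5.89, SD, n = 2).

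In 250 bp steps, 5 of 24 reached 10 CpG reads in both replicates. The step from 250 to 1 bp upstream was the only measured one under 20% in both, at 2.87% (209 reads) and 6.67% (180 reads), and had the lowest mean. The step from 0 to 249 bp past the start read 3.66% (interval 1.25% to 10.2%) in replicate 1 and 22.7% (16.4% to 30.6%) in replicate 2. By these values the replicates place the 20% crossing at different steps, but the interval of replicate 2 takes in 20%. The intervals do not overlap, yet they count CpG reads of a shared fragment as separate. No CpG of this step had more than 2 methylated reads in replicate 2. From 250 to 499 bp past the start they read 36.7% and 36.9%. In replicate 1 each of the 29 CpGs of that step had 1 methylated read, so the closeness of the values may rest on few fragments. From 500 to 749 bp they were 71.0% and 29.0% on 31 reads each, the highest mean of the measured steps. Each CpG of the gene interval had on average 3.33 and 5.02 reads, so these steps rest on few fragments.

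**Figure D3:**
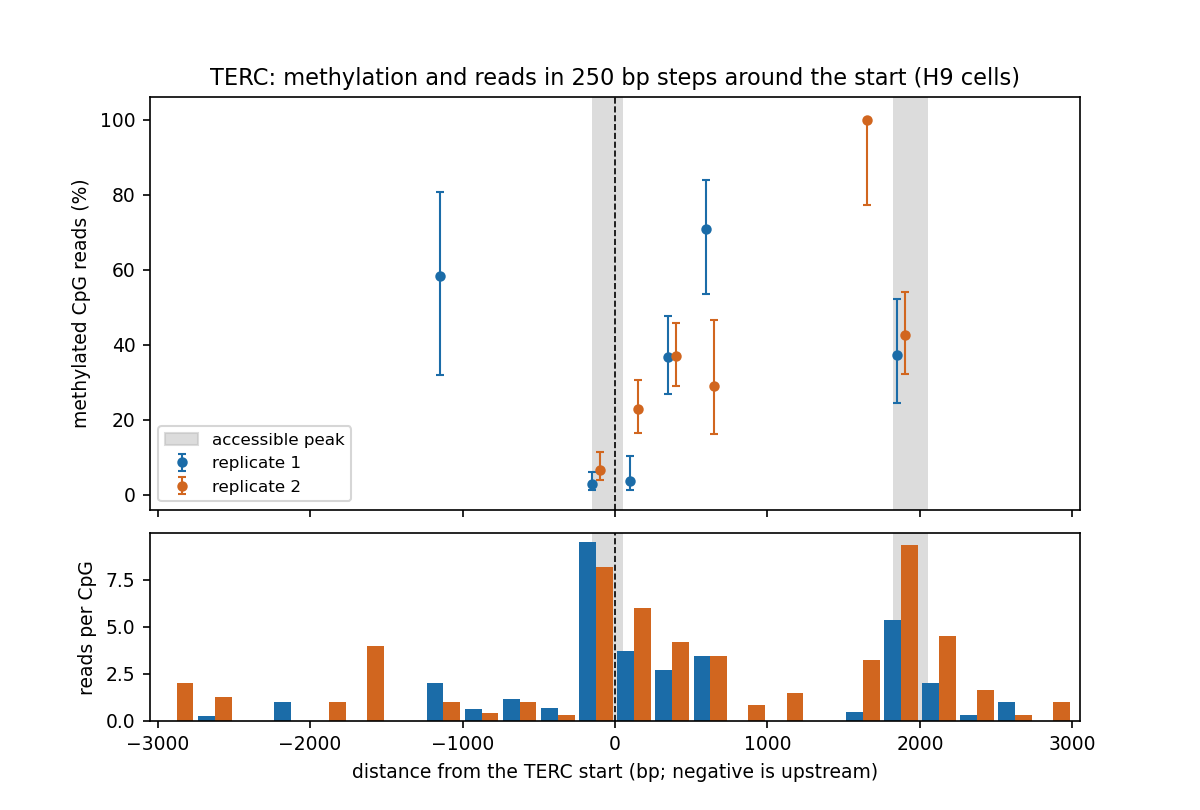
Percent of CpG reads methylated (upper panel, points with 95% Wilson intervals) and reads per CpG (lower panel) in 250 bp steps from 3 kb before to 3 kb past the TERC start, for replicates 1 and 2. Points need at least 10 reads in that replicate, and grey bands are accessible peaks. The step before the start reads 2.87% and 6.67%, and the step from 250 to 499 bp past it 36.7% and 36.9%.

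The peak at the TERC start was narrow and weak. It ran from 148 bp upstream to 54 bp past the start (chromosome 3, 169765006 to 169765208), with its summit 69 bp upstream. Its 18 CpGs read 2.44% (5 of 205 reads) and 4.40% (8 of 182), a mean of 3.42% ± 1.38 (SD, n = 2). The replicates did not pass Fisher's exact test (adjusted p = 0.769). Its signal of 283 stood at percentile 17.4 among all autosomal peaks and at percentile 3.98 among starts with a peak. Of the 79 CpGs within 500 bp, 11 had at least 10 reads in each replicate, and 5 of these had no methylated read in either. The most methylated of the 11 lay 43 bp upstream (0% and 18.2%), at the start itself (7.14% and 8.33%) and 5 bp upstream (0% and 15.4%).

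A partly methylated peak lay downstream of TERC. It ran from 1825 to 2051 bp past the start (chromosome 3, 169763009 to 169763235), with its summit at 1926 bp. Its 7 CpGs read 37.5% (15 of 40 reads, interval 24.2% to 53.0%) in replicate 1 and 36.0% (27 of 75, 26.1% to 47.3%) in replicate 2, a mean of 36.8% ± 1.06 (SD, n = 2). All 7 CpGs had a methylated read in both replicates. Under 20% in both replicates were the other 5 of the 6 peaks at TERT and TERC, against 70.2% of all tested peaks. Its signal of 528, at percentile 48.8, was above that of the peak at the TERC start. DNA from 2000 to 10000 bp past the TERC start, which takes in the outer edge of this peak, read 83.3% (24 reads) and 72.7% (66 reads).

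Further upstream of TERC lie the starts of other genes, where methylation was low. Nearer to TERC than these starts, from 169768561 to 169769060, the replicates read 70.3% (37 reads) and 94.9% (39 reads). ACTRT3, which encodes an actin-related protein, occupies 169766921 to 169769561. The peak at its start, 4798 to 4235 bp upstream of TERC, had a signal of 1504 and read 1.08% and 1.57%. MYNN, which encodes a zinc finger protein, begins at 169773396 and runs away from TERC. The peak at its start had a signal of 1320 and read 0.279% and 1.44%. A small peak between them, 7837 to 7667 bp upstream of TERC, had a signal of 208 and read 0% (0 of 47 reads, which allows up to 6.38%) and 2.63% (1 of 38). The valine tRNA gene TRV-AAC1-1 (169772230 to 169772302) lies near that peak. The 500 bp from 169772061 to 169772560, which hold it, had 0 methylated reads of 109 and 61 without overlapping a peak. These allow levels of up to 2.75% and 4.92%. None of the 5 peaks within 10 kb of TERC differed between replicates by Fisher's exact test, with adjusted p from 0.144 to 1.

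The planned comparison of TERC with its flanks, which take in these neighbours, changed sign with the processing. The flanks from 2 to 10 kb on both sides minus the start gave −9.33 ± 3.29 points (SD, n = 2). With CpGs in peaks left out of the flanks the difference reversed to 9.06 ± 6.34 points. With those CpGs kept and all CpGs weighted equally it reversed to 1.63 ± 3.03 points, less than the spread between replicates. On the downstream side alone, from 2000 to 10000 bp past the start, the difference was 62.5 ± 14.4 points (SD, n = 2).

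**Figure D4:**
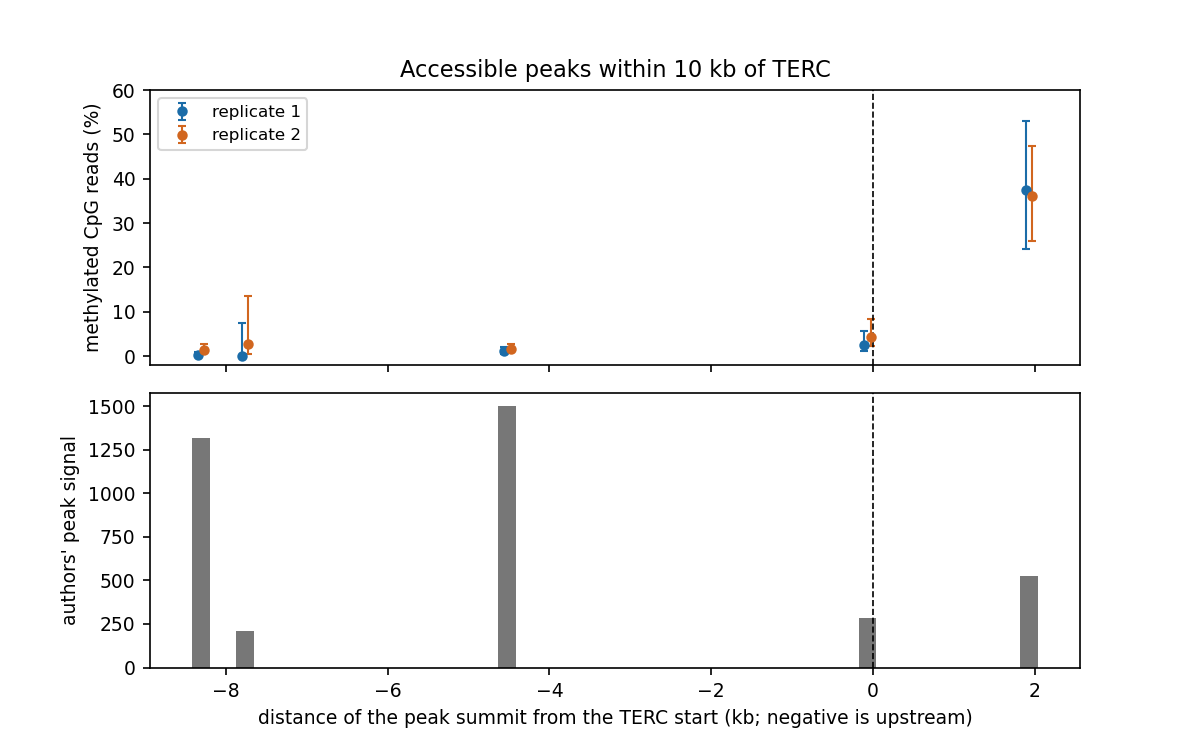
The 5 accessible peaks within 10 kb of TERC by the distance of their summit from the TERC start. The upper panel gives the percent of CpG reads methylated with 95% Wilson intervals in replicates 1 and 2, and the lower panel the authors' peak signal. The peak 1926 bp past the start reads 37.5% and 36.0%, and the other 4 lie below 5%.

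Set beside each other, TERC was the more methylated gene at its start. The difference TERC minus TERT within 500 bp was 9.76 points in replicate 1 and 18.5 in replicate 2, a mean of 14.1 ± 6.21 (SD, n = 2), larger than the spread between replicates. Within 250 bp the means were 8.28% ± 7.33 at TERC and 1.75% ± 0.875 at TERT, over CpGs with at least 5 reads 8.92% ± 8.42 and 1.27% ± 0.849, and with CpGs weighted equally 23.8% ± 5.34 and 1.38% ± 0.0254, in the same order of genes (SD, n = 2 each). In the first 2 of these settings the SD at TERC was close to its mean. Replicate 1 there read 3.09% and 2.97% at TERC, against 1.13% and 0.668% at TERT. Most of the difference within 500 bp lay past the start, where the first 500 bp read 24.7% at TERC and 0.861% at TERT, a difference of 23.8 ± 6.27 points (SD, n = 2). Upstream the 500 bp read 5.72% at TERC and 1.60% at TERT, a difference of 4.12 ± 2.11 points (SD, n = 2). TERC had 79 CpGs within 500 bp and TERT 120.

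Other genes of telomerase and telomere maintenance were mostly unmethylated and open at their starts. The list was drawn from textbook roles and holds 33 genes, TERT and TERC included, of which 24 had a listed start and 23 were measured, each replicate giving 20 CpG reads or more. Of the 23, 21 stayed under 20% in each replicate, as did 91.5% of all measured starts, a share close to that of the list. The median of the list was 1.18%, equal after rounding to that of all measured protein-coding starts. The exceptions were TERC and RTEL1. A peak summit lay within 1000 bp of 22 of the 23 autosomal starts, against 64.6% of all autosomal starts.

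Genes that build telomerase had low values throughout. The RNA-binding proteins of the H/ACA complex, which holds TERC, read 1.96% ± 2.62 at DKC1, 1.02% ± 0.567 at NOP10, 2.66% ± 1.16 at NHP2 and 0.809% ± 0.0378 at GAR1 (SD, n = 2 each). DKC1 lies on chromosome X, where no peak was listed. WRAP53, whose product brings the enzyme to Cajal bodies, read 0% in replicate 1 (279 reads, which allow up to 1.08%) and 4.49% in replicate 2. The assembly factors SHQ1, RUVBL1 and RUVBL2 read 1.26%, 0.932% and 0.835%. The RNA-processing genes TENT4B, ZCCHC8 and TOE1 read 0.901%, 2.01% and 0.892%, and TEP1, a telomerase-associated protein, 1.52%. PARN, a ribonuclease that trims TERC, had no reads within 500 bp of its listed start in either replicate and was not measured.

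The 4 measured shelterin genes, whose products coat telomeres, had the lowest median of the groups in the list. TERF2IP read 0.449% ± 0.461, ACD 0.485% ± 0.540, POT1 0.543% ± 0.579 and TINF2 0.681% ± 0.620 (SD, n = 2 each), with a median of 0.514%. These SDs were about as large as the means. STN1 of the CST complex, which helps fill in the complementary strand, read 1.18% and had the strongest peak of the list, with a signal of 3768. Of the remaining genes, DCLRE1B read 0.951%, SMG6 1.45% and ZBTB48 3.37%. RTEL1, a helicase that unwinds telomere loops, read 45.3% (75 reads) and 33.4% (404 reads), and the summit of its nearest peak lay 788 bp from the start. NAF1, TGS1, TERF1, TERF2, CTC1, TEN1, PIF1, ATRX and DAXX were not analysed here. Between replicates, 11 of the 23 starts passed Fisher's exact test after adjustment, TERC among them and TERT not, against 30.9% of all starts.

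**Figure D5:**
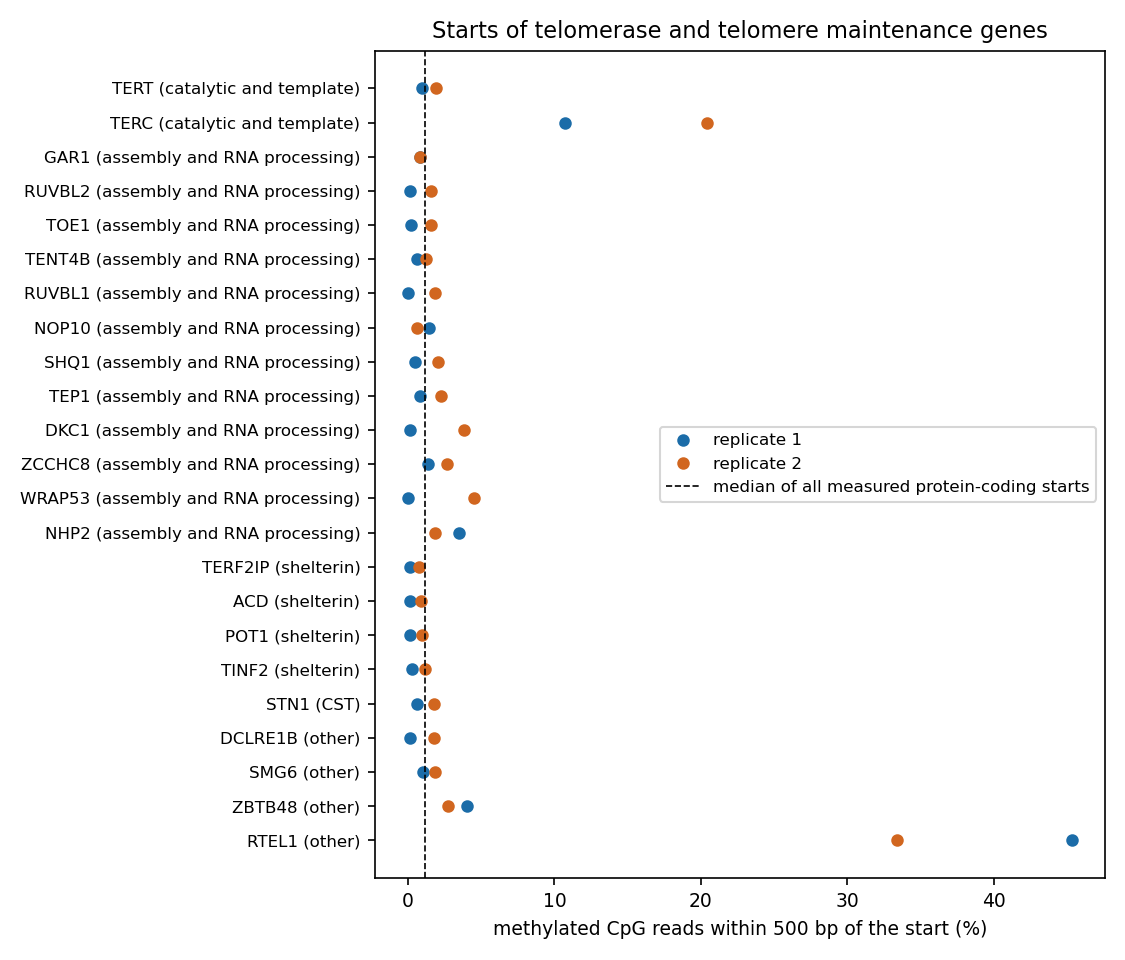
Percent of CpG reads methylated within 500 bp of the start of each of the 23 measured telomerase and telomere maintenance genes, by role, with a point for each of replicates 1 and 2. The dashed line is the median of all measured protein-coding starts, 1.18%. TERC (10.7% and 20.4%) and RTEL1 (45.3% and 33.4%) lie to the right of all others.

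Genes with the profile most like that of each member were sought over the measured 250 bp steps, by the mean absolute difference of the replicate means. For TERT, 3978 starts shared at least 80% of its 7 steps. The nearest were SLC17A7 (2.36 points), ZNF567 (2.77), CARD10 (2.99), TTC27 (3.10) and SLC2A6 (3.11), against a median difference of 22.7 points, each over 6 shared steps. For TERC, 5907 starts could be compared. The nearest were MRPL28 (4.41 points), CRELD1 (4.57), IRAK4 (4.72), KCNE5 (6.73) and TSPO (6.86), against a median of 25.2, each over 4 shared steps. For both genes the nearest starts lie below the median by how they were picked, so the medians give only a scale. Accessibility was not part of this comparison.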

How the data were processed

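Per the labels, H9 embryonic stem cells were profiled by ATAC-Me in 2 replicates. Trim Galore, Genrich and build hg38 are named in the submitters' processing notes. For the mapper, methylation caller, versions, duplicate removal and pooling of replicates before peak calling, the step is not given in the sources used here. The authors deposited for each CpG a methylation fraction and a count of covering reads. The authors' deposited peak list, called with Genrich per the submitters' processing notes, gives a score, a signal and a −log10 q-value for each peak, and a summit. Methylated reads were computed as fraction times reads, whole within 0.001 for 99.9998% and 99.9987% of covered CpGs. Positions count from 0 in the files and were turned to count from 1, checked on 64720 CpGs of RefSeq promoters, all of which were then listed. CpGs that the authors flagged as altered were kept, and none lay within 500 bp of either start.

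Gene starts came from RefSeq promoters (GRCh38.p14) and had to be the 5′ end of the gene's interval. Peaks needed 10 and starts 20 CpG reads in each replicate, steps 10. Fisher's exact test, two-sided, compared replicates over all peaks or starts, with Benjamini-Hochberg adjustment at 0.05. The test was run on simulated peaks with reads drawn independently, a setting without shared reads. In the real data CpGs share reads, so the p-values of the test are too small. Limits for a count of 0 use 3 counts. Members, gene lists and tests were chosen with earlier results of these data known. Named were both genes, all peaks and genes within 10 kb, every list member, the lowest, highest and crossing steps, the 3 most methylated CpGs per start and 5 genes of nearest profile. Python 3.11.15, numpy 2.4.6, pandas 2.3.3 and scipy 1.17.1 were used.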

Additional observations from a re-analysis of the deposited data

How the results depend on the processing

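No paired analysis was possible because there is 1 group. Leaving out replicate 1 or 2 gave 1.88% and 0.940% at the TERT start, 20.4% and 10.7% at the TERC start, 90.03 and 88.7 points for TERT body minus start, −11.7 and −7.00 points for TERC flanks minus start, and 21 and 22 list genes under 20%. With 1000 bp on each side of the start, TERT read 10.5%, its body minus start 80.3 points and TERC flanks minus start −13.9 points. With 250 bp the TERC start read 8.28%, its flanks minus start −2.05 points, and the test between replicates called 2154 of 10070 starts, against 3237 of 10461. Over CpGs with at least 5 reads the TERC start read 8.92%. With CpGs weighted equally the TERC start read 23.8% and its flanks minus start reversed to 1.63 points; without peaks in the flanks that difference reversed to 9.06 points. The TERC peak alone, an alternative added after the data were examined, read 3.42%. No CpG of the TERT body had 5 reads in replicate 1, so body minus start has no value over such CpGs. Of 53 alternatives, 43 moved less than the spread between replicates, kept their side of the threshold or stayed within 1.5 times the count. Part of the 43 could not have come out otherwise, so the count does not measure robustness. Leaving out a replicate always moves a mean of 2 by less than the SD. Leaving out flagged CpGs at the starts, or peaks in the TERT body, removed nothing. Depth limits the TERT body (0.344 and 1.48 reads per CpG), the DNA 10000 to 1001 bp upstream of TERT (0.622 and 1.16) and the DNA 3000 to 1001 bp upstream of TERC (0.882 and 1.41).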

Other observations

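Away from its start, the locus of TERT held a partly methylated stretch between TERT and SLC6A18, found after the values were seen. From 6099 to 6598 bp past the TERT gene end (chromosome 5, 1246569 to 1247068), 27 CpGs read 28.6% (42 reads) and 26.5% (181 reads), a mean of 27.5% ± 1.45 (SD, n = 2). The 500 bp next to it on the TERT side read 36.4% and 30.9%. In steps of 100 bp the lowest part, from 1246867 to 1246966, had 0 methylated reads of 6 and 25, which allow up to 50% and 12%. The 100 bp on its TERT side read 11.1% (18 reads) and 4.0% (75 reads), and the 100 bp on its other side, from 1246767 to 1246866, 55.6% and 56.0%. No peak was listed there. Of the 29 steps of 500 bp with at least 10 reads in each replicate that lay outside peaks and more than 1000 bp from the TERT start, 20 were over 80% in both replicates and 2 under 50% in both, both of them in this stretch. SLC6A18, of a family of amino acid transporter genes, read 88.3% ± 4.71 at its own start (SD, n = 2, 20 and 48 reads) with no peak.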
